A study of Mus musculus with 6 samples.

Results

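The growth of the mouse lung from the first day after birth to weaning was described from 4 single-cell libraries of room air lungs. The 2 libraries of postnatal day 21 were set against the 2 of postnatal day 1, over the cells to which the authors had given a class. There were 38405 such cells among the 55882 cells with a class in the whole series. They came from 11543 cells of day 1 females, 11278 of day 1 males, 8510 of day 21 females and 7074 of day 21 males. All animals were wild-type (WT) C57BL/6N mice kept at 21% oxygen, and hyperoxia libraries did not enter. Each library held the sorted live cells of a pool of 3 mice of 1 sex, made with 10x Genomics 3-prime chemistry, so each sex and age was 1 library and single animals cannot be seen. The study asked how lungs recover from oxygen exposure after birth and whether the sexes differ, and the room air libraries carry its normal development.

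A mouse is born with lungs at the saccular stage. Alveoli form during the weeks after birth, when myofibroblasts at the tips of growing septa lay down elastin and the double capillary layer of the septa is remodelled into a single one. The capillary endothelium holds general capillary cells (gCap), which act as progenitors, and aerocytes (aCap), large thin cells specialised for gas exchange. Alveolar macrophages settle in the airspaces in the first days, and lymphocytes enter later. Proliferation and imprinted growth genes are known to be shut down in many organs over the same weeks.

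The libraries held 122173482 to 163649658 UMIs (counted molecules), with 8417 to 9703 in the median cell that carried a class name. Median mitochondrial shares were 2.71% and 2.76% at day 1 and 1.4% and 1.96% at day 21. Barcodes without a class made up 22% to 32.8% of a library. Any pair of libraries shared at most 37 cell barcodes, and in no pair were these more than 0.376% of the smaller library. The day 1 libraries had been counted with Cell Ranger 6.0.0 and the day 21 libraries with 7.0.1, and whether reads in introns were counted is not given in the sources used here. Age and counting version cannot be told apart in these files.

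The change with age followed intron length, beyond the shortest introns, in each of the 10 classes that had at least 50 cells in every library. Over all gene and class pairs the median log2 change, day 21 against day 1, was -0.64 for genes without introns and 2.45 for genes with over 300000 bases of intron. The median was -0.75 for up to 1000 bases of intron and then rose by steps, with medians of -0.40 for over 3000 and up to 10000 bases, 0.45 for over 30000 and up to 100000 bases and 1.23 for over 100000 and up to 300000 bases. Of genes without introns 48.1% were called lower and 5.69% higher, against 3.87% lower and 84.1% higher for those with over 300000 bases. For this reason the counts of gene lists over all classes are given on a pair of scales. Other calls and log2 changes are those of the first scale unless another is named. The first, by trimmed mean of M-values (TMM), centres all genes. The second takes its scale from genes whose introns are no longer than their exons, and it moved the median of all genes up by 0.48 to 0.69 in a class and by 0.64 over all. A fall in short-intron genes on the second scale, and a rise of a gene with short or no introns on the first, are the calls that this gradient touches least.

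**Figure D1:**
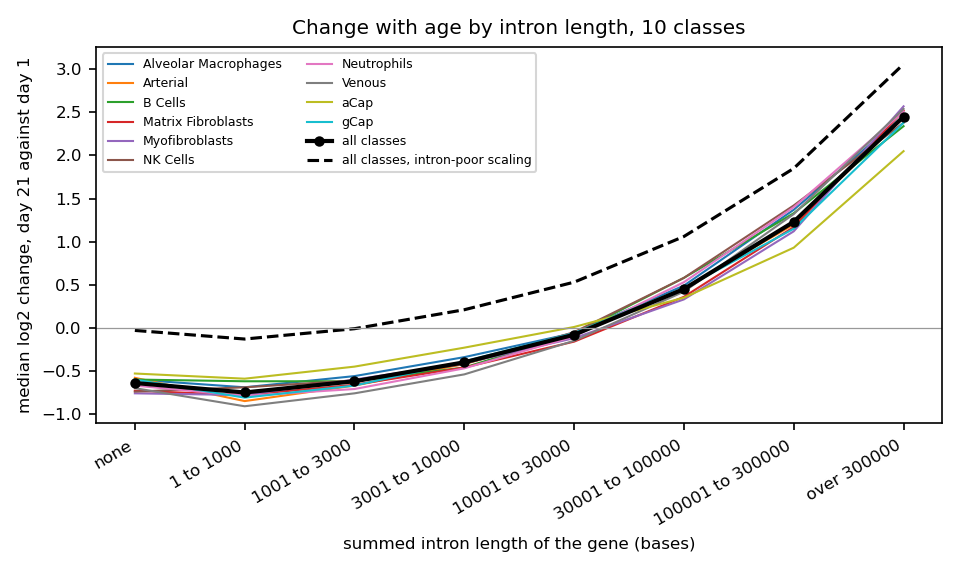
Median log2 change from day 1 to day 21 (vertical axis) against the summed intron length of the gene in bases (horizontal axis, 8 ranges) for each of 10 classes (thin lines) and all classes (thick line: TMM scaling; dashed line: scaling on intron-poor genes). The lines of the 10 classes lie close together. Over all classes the median dips from -0.64 for genes without introns to -0.75 for the shortest introns and then climbs to 2.45 for genes with over 300000 intron bases.

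Calls were made with edgeR's quasi-likelihood test on counts summed per class and library, with sex as a covariate and Benjamini-Hochberg adjustment within a class, at an adjusted p under 0.05. With 1 residual degree of freedom the p-values lean on the spread shared across genes. Of 109029 gene and class pairs, 28037 (25.7%) were called lower and 31184 (28.6%) higher at day 21. DESeq2 made 30441 age calls against 59221 with edgeR. On the intron-poor scale 9809 (9.0%) were called lower and 53506 (49.1%) higher, so higher calls made up 52.7% of all calls on the first scale and 84.5% on the second. All 9809 lower calls of the second scale were also called lower on the first, and all 31184 higher calls of the first were also called higher on the second. The second scale moves the changes of a class up nearly together, so this nesting was largely set in advance. Of the pairs in which a class held at least 0.25 of the highest level of any class, 6016 of 85035 were lower on both scales.

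The classes were checked against markers fixed for each cell type. At least 2 of 5 endothelial markers were found in 99.5% to 100% of Arterial cells. The class named B Cells differed between the ages, since 65.7% and 50% of its cells held 2 or more B cell markers at day 1 against 99.1% and 100% at day 21. Alveolar macrophage markers were found in 82.6% and 83.6% of that class at day 1 and in 99.8% and 100% at day 21. In Matrix Fibroblasts the share with 2 or more endothelial markers was 11.2% and 11% at day 1 and 59.8% and 56.9% at day 21. In aCap the share with epithelial markers was 14.7% and 12% at day 1 and 0.0% and 0.147% at day 21. Between 41.0% and 61.0% of NK Cells held T cell markers at either age. The venous marker Ackr1 stood at 1.14, 0, 0 and 0 CPM in Venous cells (female day 1, male day 1, female day 21, male day 21). In the same order Slc6a2 stood there at 81.1, 40.4, 2360 and 1780 CPM, Vwf at 929, 769, 3960 and 3320, Nr2f2 at 383, 437, 539 and 731 and Car8 at 470, 300, 385 and 381. In Arterial cells Gja5 stood at 282, 312, 169 and 137 CPM, Dkk2 at 61.0, 68.5, 7.87 and 0.426, Bmx at 80.1, 75.9, 166 and 156, Hey1 at 416, 377, 379 and 449 and Cxcl12 at 4460, 4460, 4010 and 3400. The part in the changes below of cells without markers of their class, or with those of another, was not tested, except where values without such cells are given.

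The epithelium and mesenchyme made up far smaller shares of the day 21 libraries, and endothelial and immune cells larger ones. Epithelial cells were 21.8% of female and 30.3% of male cells at day 1 and 1.94% and 0.297% at day 21. Mesenchymal cells went from 14.4% and 7.89% to 2.83% and 2.86%. Endothelial cells went from 27.6% and 25.0% to 36.8% and 34.9%, and immune cells from 36.2% and 36.9% to 58.1% and 61.8%. The ages did not overlap in any of the 4 lineages. The mean share differed by 9.63 percentage points for endothelial cells and by 23.4 for immune cells, and over every deposited barcode by 5.66 and 15.0. These are shares of sorted cells, so a lower number of a cell type and a lower yield of it from the tissue cannot be told apart. With 2 libraries against 2 the smallest exact permutation p is 0.333, and shares were not tested.

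Alveolar type 1 cells (AT1), the flat cells of the gas exchange surface, went from 17.8% and 15.6% to 0.376% and 0.198%. Type 2 cells (AT2), which make surfactant, went from 3.99% and 14.6% over both their names to 1.56% and 0.0989%. AT2 Lyz1+ cells were 3.53% and 9.05% at day 1, and none were found at day 21, which allows a share of up to 0.0353% in the female library and 0.0424% in the male library. Counting by markers in place of names, after thinning each cell to 2000 UMIs, the share of cells with 2 or more of 5 epithelial markers was 19.4% and 24.8% at day 1 and 1.01% and 0.185% at day 21.

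Within the endothelium the aerocytes held a larger share at day 21. They were 13.9% and 17.2% of endothelial cells at day 1 and 29.2% and 27.6% at day 21, while gCap were 64.8% and 59.8% and then 56.9% and 57.6%. Proliferating endothelial cells (Prolif Ecs) made up 0.927% and 0.896% of the day 1 libraries, and the name was not used at day 21. Arterial cells kept similar shares of all cells, 3.52% and 3.5% at day 1 and 4.02% and 3.89% at day 21. Of endothelial cells they were 12.8% and 14.0% and then 10.9% and 11.1%. Venous cells were 1.43% and 1.36% of all cells and then 0.823% and 0.763%. In the mesenchyme, Myofibroblasts went from 10.5% and 5.48% of all cells to 0.658% and 1.39%, and from 72.7% and 69.4% of mesenchymal cells to 23.2% and 48.5%.

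The immune classes differed in kind as well as in share. Transient Macrophages, 11% and 10.7% of day 1 cells, were a name of day 1 alone. Nonclassical Monocytes, patrolling cells of the vessels, went from 0.277% and 0.0975% to 10.9% and 13.9%. Alveolar Macrophages went from 1.29% and 1.57% to 7.16% and 4.92%. T cells of all names were absent from the classes of day 1 (0 of 11543 and 0 of 11278 cells, which allows a share of up to 0.026% and 0.0266%) and were 5.12% and 14.2% at day 21. By markers, cells with 2 or more of 5 T cell markers were 0.275% and 0.274% at day 1 and 3.98% and 14.0% at day 21, so cells with these markers were found at day 1 under other names. Dendritic cells, named at day 21 alone, were 2.75% and 1.51% there, and by their markers 0.0177% and 0.0366% at day 1 against 0.616% and 0.285%. Neutrophils of both names were 12.8% and 14.0% at day 1 and 21.8% and 13.8% at day 21, with the male values almost level. Of 31 class names 16 had cells at both ages, 7 at day 1 alone and 8 at day 21 alone, so part of these changes is a change of names.

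**Figure D2:**
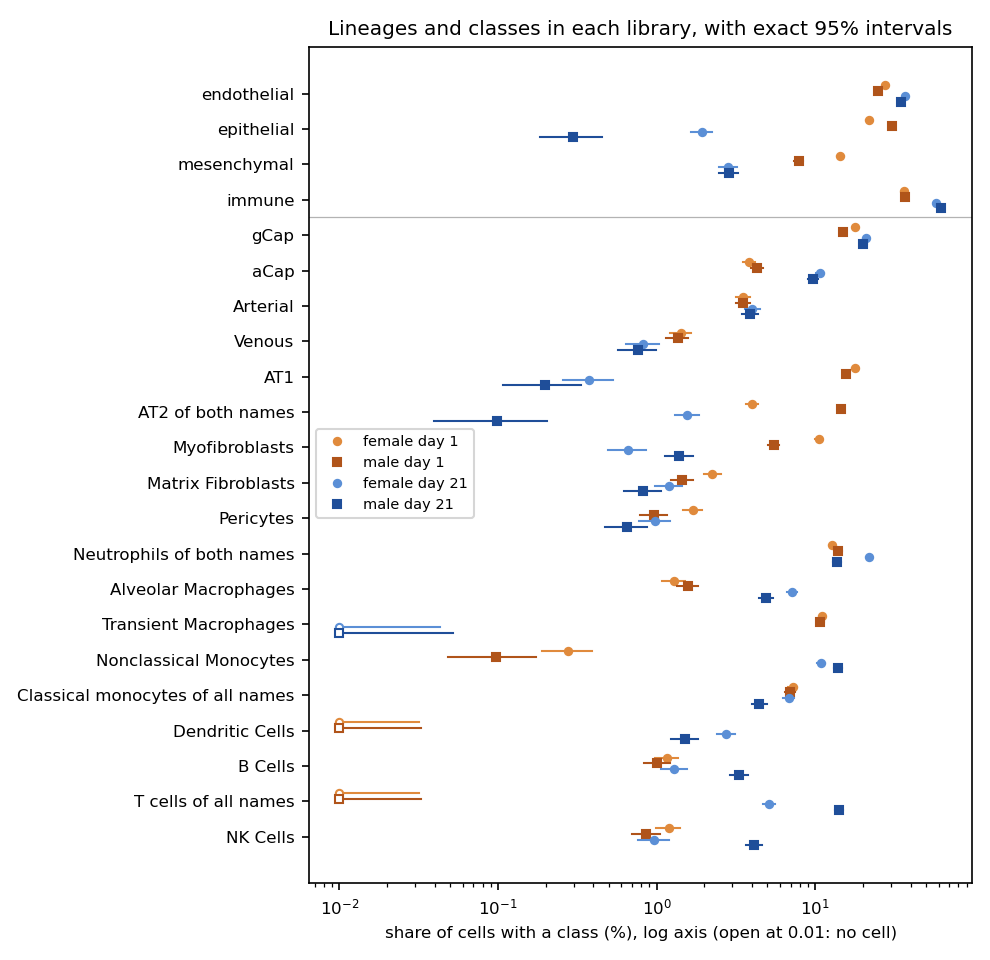
Share of each library's cells with a class (horizontal axis, percent, log scale) for the 4 lineages and 18 classes or groups of classes, with 1 symbol per library (circles female, squares male, orange and brown day 1, blues day 21) and exact Clopper-Pearson 95% intervals for counting error. Epithelial shares of 21.8% and 30.3% at day 1 stand against 1.94% and 0.297% at day 21, and the T cell names were used at day 21 alone.

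Cells in division made up smaller shares at day 21. Cells with at least 2 of 5 cycling markers (Mki67, Top2a, Cdk1, Ccnb2 and Birc5) at 2000 UMIs per cell were 2.84% and 3.67% at day 1 and 0.806% and 0.513% at day 21. Without thinning they were 6.26% and 7.39%, then 2.31% and 1.80%. In gCap the thinned share was 1.03% and 1.61% at day 1 and 0.0567% and 0.142% at day 21. The class Neutrophils, a cell type that does not divide when mature, stood at 0 in every library by the same count. Without thinning its shares were 0.264% and 0% at day 1 and 0.216% and 0.307% at day 21. By the thinned count Neutrophils Ngp+, a name of day 1 alone, held 1.79% and 1.24%. In B Cells the share was 12% and 10.7% at day 1 and 3.64% and 1.29% at day 21. NK Cells kept 14.6% in the day 21 female library, against 14.6% and 15.5% at day 1, but stood at 3.41% in the day 21 male library. Without thinning the NK shares were 29.2% and 33.0%, then 19.5% and 7.85%. Alveolar Macrophages had 2.70% and 1.69% at day 1 and 1.48% and 2.30% at day 21, with overlapping ages. Without thinning these shares were 6.04% and 5.08%, then 6.9% and 10.6%, and the ages did not overlap. Transient Macrophages, found at day 1, held 8.12% and 14.0% cycling cells.

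**Figure D3:**
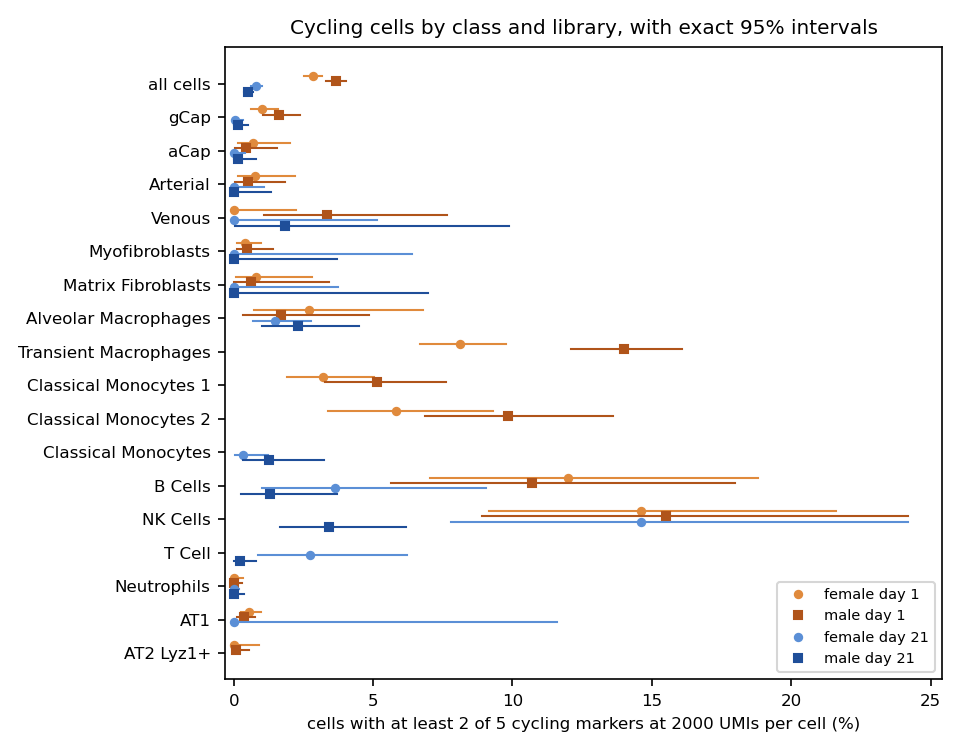
Share of cells with at least 2 of 5 cycling markers after thinning to 2000 UMIs per cell (horizontal axis, percent) by class and library, with exact Clopper-Pearson 95% intervals. In all cells the day 1 libraries sit at 2.84% and 3.67% and the day 21 libraries at 0.806% and 0.513%, while in Alveolar Macrophages and in female NK Cells the ages overlap.

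Values of genes are given below as CPM, the UMIs of the gene per 1000000 UMIs of the class, in the order female day 1, male day 1, female day 21 and male day 21. Log2 changes are those of the TMM scale with their standard error (SE) unless the intron-poor scale is named, and each group holds 2 libraries. Some list members named below were not set by the rule for named genes and were chosen after their values were seen. All of these are given for a single class, or for a pair of classes in the case of Sox11, Eln, Fbn2, Cd93 and Kdr. Genes set by the rule are in part given for a single class as well.

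Of the cell cycle list, 48 genes of replication and mitosis, 194 of 329 gene and class pairs (59.0%) were called lower and 21 (6.38%) higher, against 25.7% and 28.6% of all pairs, with a median log2 change of -0.93 against 0.01 over all pairs tested. On the intron-poor scale 109 (33.1%) were lower and 47 (14.3%) higher, against 9.0% and 49.1%, with a median of -0.30 against 0.64. In gCap 44 of 46 members were lower and none higher (31 and 2 on the intron-poor scale), and in B Cells 40 of 46 were lower (25 on the intron-poor scale), against 32.5% and 23.5% of all genes tested in these classes (12.5% and 9.79%). Alveolar Macrophages held 9 lower and 12 higher of 46, near the 25% and 28.9% of all genes tested in that class, and 1 lower and 21 higher on the intron-poor scale, beside 8.73% and 48.5%. Cdk1, the kinase that drives entry into mitosis, stood at 14.1, 13.1, 1.75 and 2.05 CPM in gCap, a change of -2.97 ± 0.242 (adjusted p = 2.24e-15) and of -2.33 on the intron-poor scale. Mki67, a marker of dividing cells, stood at 7.78, 17.4, 1.63 and 0.855 CPM there. These gCap levels were a fraction of 0.0282 and 0.0123 of those in the class where each gene was highest. Hmgb2, a chromatin protein of dividing cells, was lower in 10 of 10 classes, with a median log2 change of -1.71, and in 7 of 10 on the intron-poor scale. Tubb5, a tubulin, was lower in 9 of 10, but on the intron-poor scale lower in 6 and higher in 1.

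Promoters of cell cycle genes are known to share CCAAT boxes, bound by NF-Y, and CHR elements (TTTGAA), bound by the DREAM and MuvB complexes. Both motifs were searched on both strands in the 250 bases before each RefSeq gene start (GRCm38.p6). CCAAT was found in 29 of 41 promoters of the list (70.7%) and in 33.8% of all 32851 promoters. TTTGAA was found in 9 of 41 (22%) and in 16.0% of all, and both together in 9 of 41 (22%) and in 5.55% of all. The promoters of Cdk1 (chr10:69352913-69353162, minus strand) and Hmgb2 (chr8:57511593-57511842, plus strand) are shown as members that fell and hold both motifs, 5′ to 3′, with matches to these motifs and their reverse complements in capitals. No matches overlap.
Cdk1: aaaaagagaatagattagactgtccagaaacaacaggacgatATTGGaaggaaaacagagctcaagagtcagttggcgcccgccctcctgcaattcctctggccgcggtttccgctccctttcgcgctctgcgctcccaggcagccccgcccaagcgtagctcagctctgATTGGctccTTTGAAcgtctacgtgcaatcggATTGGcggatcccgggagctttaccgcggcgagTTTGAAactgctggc
Hmgb2: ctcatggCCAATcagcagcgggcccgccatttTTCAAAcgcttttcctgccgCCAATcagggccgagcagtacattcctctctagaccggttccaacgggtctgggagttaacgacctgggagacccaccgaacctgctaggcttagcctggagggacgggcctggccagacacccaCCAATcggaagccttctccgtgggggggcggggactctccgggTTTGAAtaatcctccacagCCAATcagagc

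Histone genes were lower in nearly all classes. Of 166 pairs, 143 (86.1%) were called lower and 1 higher, with a median log2 change of -1.61, and on the intron-poor scale 107 (64.5%) were lower and 7 higher, with a median of -0.97. Most genes of this list have no introns, and of all pairs of genes without introns 48.1% were lower on the first scale and 21.0% on the second. The linker histone gene Hist1h1e stood at 430.0, 595, 81.1 and 134 CPM in gCap, a change of -2.40 ± 0.121 (adjusted p = 2.92e-23), and was lower in 10 of 10 classes on both scales. Hist1h1b, another linker histone, was lower in 10 of 10 classes and in 8 on the intron-poor scale. H1f0, a linker histone known from cells that have left the cycle, also fell in 10 of 10, from 271 and 282 to 91.7 and 103 CPM in gCap. All 15 members tested in Neutrophils were lower, and 11 of 15 on the intron-poor scale, against 58.2% and 26.3% of the genes without introns in that class. Genes of the Hist1 cluster are near copies of each other, so their reads may be shared out among them.

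The imprinted and fetal growth list had the lowest median of the 19 lists. Of 230 pairs, 180 (78.3%) were called lower and 11 (4.78%) higher, with a median log2 change of -2.41, against 25.7% and 28.6% of all pairs. On the intron-poor scale 158 (68.7%) were lower and 35 (15.2%) higher, with a median of -1.84, against 9.0% and 49.1%. Mest, an imprinted gene that promotes growth, stood at 877, 958, 48.2 and 46.8 CPM in gCap, a change of -4.39 ± 0.132 (adjusted p = 2.03e-32), and was lower in 10 of 10 classes on both scales. Mest overlaps Copg2 on the other strand. Peg3, an imprinted zinc finger gene, stood at 860.0, 1020, 97.5 and 73.6 CPM in gCap. Igf2bp1, a fetal RNA-binding protein, went from 12 and 13.8 to 0.12 and 0.0855 CPM there, and Sox4, a transcription factor gene without introns, from 568 and 558 to 200 CPM in both libraries (-1.62 ± 0.116). Both libraries of each age lie close together in these genes, and the ages are far apart.

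In Myofibroblasts the imprinted H19 transcript stood at 759 and 929 CPM at day 1 and had no UMI in either day 21 library, where 3 UMIs would be 4.7 and 2.76 CPM. Meg3, an imprinted noncoding RNA, stood at 1980, 1900, 186 and 194 CPM (-3.43 ± 0.167). Igf2, the fetal growth factor, stood at 125, 131, 23.5 and 16.6 CPM. Sox11, a transcription factor gene without introns, went from 271 and 289 to 23.5 and 13.8 CPM in Myofibroblasts (-4.07 ± 0.234, adjusted p = 6.76e-13). In gCap it went the other way, from 122 and 140.0 to 167 and 172 CPM (0.25 ± 0.115, adjusted p = 0.0475, and 0.89 on the intron-poor scale). Against the other classes the log2 difference was 1.04 in gCap (adjusted p = 0.000258) and -4.03 in Myofibroblasts (adjusted p = 1.57e-05).

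By the rule that took the 12 genes called lower in the most classes, Dlk1, Meg3, Mest, the stefin genes Stfa1 and Stfa3, the cystatin-like Csta2 and Cstdc5, the epithelial genes Krt18, Cldn3, Sfta2 and Lyz1, and Hist1h1b were named, each lower in 10 of 10 classes. Most of them had their highest level in another class than those tested. Dlk1, an imprinted ligand, had its highest level in AT2 (3420 CPM) and a median log2 change of -8.85 over the tested classes. The stefin and cystatin genes were highest in Neutrophils Ngp+, with 42900 CPM for Stfa1, and Krt18 and Cldn3 were highest in AT1. In 0 to 4 of their 10 falls did the class hold at least 0.25 of the highest level. Mest, highest in aCap, had 4 such classes. The part of free RNA from those cells in these falls was not tested. The stefin genes are near copies of each other, and how the counting split their reads is not given in the sources used here.

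Matrix genes moved in both directions. Over the list of elastic fibre and collagen genes 181 of 333 pairs (54.4%) were called lower and 40 (12%) higher, with a median log2 change of -0.65, against 25.7% and 28.6% of all pairs. With the intron-poor scaling 112 (33.6%) were lower and 105 (31.5%) higher, with a median of -0.09, against 9.0% and 49.1%. In Myofibroblasts 18 of 46 were lower and 12 higher, and on the intron-poor scale 14 were lower and 26 higher. Of all genes tested in that class 24.8% were lower and 26% higher on the first scale and 7.85% and 45.5% on the second, so on the first scale the share of higher calls in the list was near that of all genes. Eln, elastin itself, stood at 2610, 1860, 5140 and 3040 CPM there (0.76 ± 0.142, adjusted p = 9.79e-05). The gene has 36633 bases of intron, and its change stood 0.43 above the median of genes of like intron length in that class. In Matrix Fibroblasts Eln stood at 6890, 5540, 5890 and 4560 CPM, a change of -0.43 ± 0.117 (adjusted p = 0.00493) that was 0.22 on the intron-poor scale (adjusted p = 0.224). The list members set by the rule were Fn1, lower in 10 of 10 classes, Col4a4, in 8 of 9, and Sparc and Nid1, in 8 of 10. On the intron-poor scale these genes were lower in 9, 7, 5 and 0 classes and higher in 0, 1, 2 and 1.

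Several partners of elastin fell in Myofibroblasts. Lox, which cross-links elastin and collagen, stood at 292, 440.0, 65.7 and 43.3 CPM (-2.87 ± 0.225, adjusted p = 2.06e-10). Mfap2, a microfibril protein, stood at 874, 713, 178 and 215 CPM (-2.08 ± 0.173). Fbn2, the fibrillin of the fetus, went from 93.0 and 88.6 to 7.83 and 10.1 CPM, and in Matrix Fibroblasts from 194 and 197 to 10.4 and 7.28 CPM (-4.58 ± 0.259), although its introns sum to 188650 bases. Fbn1, the adult fibrillin, with introns of 195272 bases, stood at 246, 169, 329 and 276 CPM in Myofibroblasts (0.48 ± 0.158, adjusted p = 0.014). Against genes of like intron length in the class, the change of Fbn2 was -4.50 and that of Fbn1 was -0.64. Mfap5, another microfibril protein, rose from 82.6 and 39.2 to 612 and 556 CPM (3.25 ± 0.196), and Col3a1, a fibrillar collagen, from 2400 and 1610 to 9800 and 7390 CPM (2.03 ± 0.139). Tnc, a matrix protein of developing tissue, stood at 763, 683, 250 and 190.0 CPM.

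Hedgehog, fibroblast growth factor and myofibroblast genes, kept in 1 list, moved in both directions. Over all classes 59 of 137 pairs (43.1%) were lower and 37 (27.0%) higher on the TMM scale, with a median of -0.12, and 42 (30.7%) lower and 60 (43.8%) higher on the intron-poor scale, with a median of 0.53. The share of higher calls was near that of all pairs, 28.6% and 49.1%, and the share of lower calls stood against 25.7% and 9.0%. In Myofibroblasts 13 of 23 members were lower and 7 higher, against 24.8% and 26% of all genes tested there, and 9 and 9 on the intron-poor scale, against 7.85% and 45.5%. Hhip, a hedgehog inhibitor that marks alveolar myofibroblasts, rose from 891 and 806 to 6250 and 5940 CPM (2.76 ± 0.146, adjusted p = 1.46e-13). Its change stood 2.43 above genes of like intron length. The other 4 markers of the class moved in both directions. Aspn, the matrix protein asporin, stood at 946, 87.5, 3220 and 2250 CPM, with both day 21 libraries above both of day 1 and the day 1 libraries far apart. Tgfbi, a matrix protein, stood at 4500, 4000, 466 and 354 CPM (-3.47 ± 0.159, adjusted p = 9.58e-15) and Tagln, an actin-binding protein of contractile cells, at 2670, 2270, 750.0 and 999 CPM (-1.59 ± 0.162). Acta2, smooth muscle actin, stood at 1390, 645, 413 and 586 CPM (-1.01 ± 0.231), a change of -0.34 on the intron-poor scale (adjusted p = 0.242). The hedgehog receptor Ptch1, itself a target of the pathway, stood at 172, 160.0, 61.1 and 73.7 CPM (-1.37 ± 0.18). Pdgfra, the growth factor receptor of septal myofibroblasts, stood at 405, 394, 76.7 and 45.2 CPM (-2.85 ± 0.2, adjusted p = 2.76e-11). The transcription factors Gli2 and Gli3 rose, from 10.1 and 9.12 to 86.1 and 65.4 CPM and from 37.1 and 32.6 to 76.7 and 71.9 CPM, but their introns sum to 212619 and 257203 bases and Gli3 stood at -0.11 against genes of like intron length. The Wnt list, of secreted growth signals and their receptors and inhibitors, held 33 lower and 40 higher calls among 121 pairs, shares of 27.3% and 33.1% that lie near those of all pairs, and 22 lower and 52 higher calls on the intron-poor scale (18.2% and 43.0%, against 9.0% and 49.1% of all pairs). In Myofibroblasts Sfrp2, a secreted Wnt inhibitor, went from 77.2 and 135 CPM to no UMI, and Notum, another, stood at 126, 174, 3.13 and 12.9 CPM. The receptors Fzd1 and Fzd2, without introns, fell there from 102 and 113 to 45.4 and 33.2 CPM and from 213 and 212 to 65.7 and 59.0 CPM. Lgr5 and Lgr6, receptors for R-spondins, rose from 3.20 and 2.96 to 72.0 and 88.5 CPM and from 59.0 and 21.9 to 407 and 265 CPM.

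Over the capillary identity list 66 of 277 pairs of all classes (23.8%) were lower and 121 (43.7%) higher, with a median of 0.34, against 25.7% and 28.6% of all pairs. With the intron-poor scaling 27 (9.75%) were lower and 151 (54.5%) higher, with a median of 0.88, near the 9.0% and 49.1% of all pairs. Among the genes whose introns are no longer than their exons 31 of 72 pairs (43.1%) were lower and 18 (25%) higher, against 48.6% and 6.22% of all such pairs. In aCap 8 of 30 members were lower and 18 higher, against 24.9% and 28.6% of all genes tested there, and in gCap 6 of 30 were lower and 20 higher, against 32.5% and 35.1%. In Arterial cells 4 of 29 were lower and 18 higher, and in Venous cells 6 and 19 of 29. In Matrix Fibroblasts 2 of 29 were lower and 25 higher, beside the larger share of cells with endothelial markers there at day 21. In Myofibroblasts 14 of 29 were lower and 3 higher. Of all genes tested in these classes 22.5% to 27.8% were lower and 25.3% to 30.2% higher. Medians were 0.39 in aCap, 0.50 in gCap, 0.78 in Arterial cells, 0.96 in Venous cells and 2.34 in Matrix Fibroblasts. Fibin, a secreted protein and aerocyte marker whose gene has no introns, rose in aCap from 84.2 and 99.9 to 1280 and 1410 CPM (3.79 ± 0.169, adjusted p = 1.23e-106). The change in aCap exceeded that of the other classes by 4.56 ± 0.217 on the log2 scale (adjusted p = 2.91e-07). Apln, the ligand apelin, rose in aCap from 242 and 282 to 584 and 521 CPM (0.99 ± 0.153) and Car4, a carbonic anhydrase, from 1530 and 976 to 2270 and 2690 CPM (0.93 ± 0.143). Sox17, a transcription factor of endothelial identity with short introns, fell in aCap from 342 and 353 to 50 and 56.0 CPM (-2.80 ± 0.166, adjusted p = 5.47e-61, and -2.32 on the intron-poor scale).

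Cd93, a gCap marker, fell in aCap from 502 and 548 to 104 and 110.0 CPM (-2.38 ± 0.159). In gCap it rose from 1210 and 1070 to 1690 and 1520 CPM (0.38 ± 0.109, adjusted p = 0.00223). Relative to the other classes the change was -2.77 in aCap (adjusted p = 2.5e-07) and 0.84 in gCap (adjusted p = 0.000209). Gpihbp1, which carries lipoprotein lipase on capillaries, stood at 324, 553, 189 and 253 CPM in aCap (-1.04 ± 0.153). Kdr, the main receptor for vascular endothelial growth factor, stood at 1360, 1220, 2150 and 1900 CPM in aCap (0.56 ± 0.141, adjusted p = 0.00022). In gCap it stood at 359, 382, 297 and 240.0 CPM (-0.59 ± 0.118, adjusted p = 2.09e-05), and on the intron-poor scale the gCap change was 0.05 (adjusted p = 0.759). The change of Kdr differed from that of the other classes by 1.12 in aCap (adjusted p = 2.87e-05) and by -1.34 in gCap (adjusted p = 7.8e-05).

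Other endothelial genes without introns, chosen after their values were seen, add to this. Thbd, the anticoagulant receptor thrombomodulin, stood at 325, 278, 866 and 845 CPM in Arterial cells. Aplnr, the apelin receptor, stood at 658, 521, 78.6 and 75.2 CPM in Venous cells. Both were called among genes without introns, scaled and adjusted by themselves. The basement membrane genes Nid2 and Hspg2 fell in gCap despite long introns, Nid2 from 58.8 and 53.0 to 2.77 and 2.57 CPM (-4.50 ± 0.185). Of 283 pairs of the angiogenesis and tip cell list, 91 (32.2%) were lower and 98 (34.6%) higher, against 25.7% and 28.6% of all pairs, and on the intron-poor scale 48 (17.0%) were lower and 138 (48.8%) higher, against 9.0% and 49.1%.

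Transcripts of antigen presentation genes were higher in the endothelial and mesenchymal classes, and in smaller shares in immune classes. Of 214 pairs of the list, 157 (73.4%) were called higher and 14 (6.54%) lower, with a median log2 change of 1.24, against 28.6% and 25.7% of all pairs. With the intron-poor scaling 193 (90.2%) were higher and 6 (2.80%) lower, with a median of 1.86, against 49.1% and 9.0%. Among the 10 genes whose introns are no longer than their exons, 66 of 98 pairs (67.3%) were higher and 9 (9.18%) lower, against 6.22% and 48.6% of all such pairs. All 22 members tested in Arterial cells were higher, as were 21 of 21 in aCap and 21 of 23 in gCap, against 30.2%, 28.6% and 35.1% of all genes tested in these classes. In Matrix Fibroblasts 19 of 20 were higher, beside the larger share of cells with endothelial markers in that class at day 21, and in Myofibroblasts 15 of 16, against 25.5% and 26% of all genes tested there. In B Cells 8 of 25 were higher and 7 lower, beside 25.4% and 23.5% of all genes tested there, and on the intron-poor scale 16 were higher and 6 lower, beside 40.8% and 9.79%. In Alveolar Macrophages 11 of 24 were higher and 0 lower, beside 28.9% and 25% of all genes tested there. In NK Cells 12 of 22 were higher and 2 lower, beside 24.9% and 20.2%. In Neutrophils 9 of 20 were higher and 5 lower, beside 33.8% and 29.8%.

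H2-K1, a heavy chain of MHC class I, rose in gCap from 157 and 141 to 826 and 1340 CPM (2.70 ± 0.135, adjusted p = 2.28e-23) and in aCap from 104 and 102 to 662 and 902 CPM (2.82 ± 0.165). H2-Q7, a class Ib gene, stood at 20.1, 11.8, 179 and 342 CPM in gCap and was higher in 9 of 9 classes. B2m, the light chain, stood at 555, 573, 1060 and 1470 CPM (1.03 ± 0.115), and Psmb9, a subunit of the immunoproteasome, at 40.4, 36.1, 80.2 and 151 CPM (1.40 ± 0.146). Nlrc5, the activator of class I genes, went from 0.864 and 0.51 to 22.3 and 38.8 CPM in gCap, with introns of 84424 bases. In all 5 genes the male day 21 library was the highest of the 4. Class I genes are close copies of each other and their counts are uncertain in their split. The class II genes H2-Aa, H2-Eb1 and Cd74 were also higher in 8 of 9, 9 of 10 and 9 of 10 classes. H2-Aa was highest in Dendritic Cells (8630 CPM), a class named at day 21 alone, and in none of its calls did the class hold 0.25 of that level.

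Of 250 pairs of interferon-stimulated genes 114 (45.6%) were higher and 35 (14.0%) lower, with a median of 0.52, against 28.6% and 25.7% of all pairs. On the intron-poor scale 180 (72.0%) were higher and 15 (6.0%) lower, with a median of 1.13, against 49.1% and 9.0%. Of the 52 pairs whose introns are no longer than their exons 17 (32.7%) were lower and 8 (15.4%) higher, against 48.6% and 6.22% of all such pairs. In Alveolar Macrophages 8 of 22 members were lower and 4 higher, against 25% and 28.9% of all genes tested there, and 4 and 8 on the intron-poor scale, against 8.73% and 48.5%. Stat2, a transducer of interferon signals, was higher in 10 of 10 classes on both scales and stood at 28.5, 30.5, 77.4 and 84.4 CPM in gCap (1.33 ± 0.13, adjusted p = 9.09e-13). Irf1, a transcription factor induced by interferon gamma, stood at 56.9, 47.0, 159 and 176 CPM there. Gbp2, a guanylate-binding protein of host defence, stood at 24.0, 20.6, 58.0 and 118 CPM, and Iigp1, an interferon-induced GTPase, at 40.5, 44.3, 94.0 and 284 CPM. In Gbp2 and Iigp1 the male day 21 library stood well above the female one, and with 1 library per sex and age that difference has no replicate.

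Interferon-stimulated promoters are known to carry a response element, read here as TTCNNTTTC on either strand. It was found in 14 of 27 promoters of the interferon list (51.9%), in 4 of 22 of the antigen presentation list (18.2%) and in 7.13% of all promoters. The promoters of Stat2 (chr10:128270248-128270497, plus strand) and Gbp2 (chr3:142620413-142620662, plus strand) are shown since both genes rose in gCap and in most other classes, with the matches in capitals.
Stat2: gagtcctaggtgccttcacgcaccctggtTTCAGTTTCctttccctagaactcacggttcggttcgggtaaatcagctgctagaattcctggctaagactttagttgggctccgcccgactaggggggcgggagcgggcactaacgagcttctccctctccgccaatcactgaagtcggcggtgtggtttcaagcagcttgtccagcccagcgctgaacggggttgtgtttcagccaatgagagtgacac
Gbp2: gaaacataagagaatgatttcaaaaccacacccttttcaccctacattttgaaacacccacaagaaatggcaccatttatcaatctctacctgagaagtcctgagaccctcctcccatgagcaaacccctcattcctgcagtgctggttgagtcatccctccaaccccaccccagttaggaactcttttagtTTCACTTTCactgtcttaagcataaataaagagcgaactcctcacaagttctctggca

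Clock genes were higher at day 21 in the endothelial and mesenchymal classes. Over the clock list 82 of 126 pairs (65.1%) were higher and 10 (7.94%) lower, with a median of 1.16 (1.70 on the intron-poor scale), against 28.6% and 25.7% of all pairs. On the intron-poor scale 96 (76.2%) were higher and 5 (3.97%) lower, against 49.1% and 9.0%. In Myofibroblasts 14 of 16 members rose, against 26% of all genes tested there. Dbp, an output gene of the clock with 2123 bases of intron, went from 3.09 and 2.73 to 92.4 and 94.0 CPM in Myofibroblasts (4.89 ± 0.278, adjusted p = 5.58e-13). The repressor Nr1d1 went from 5.36 and 1.82 to 211 and 190.0 CPM (5.63 ± 0.251), Tef from 13.2 and 13.7 to 119 and 88.5 CPM, and Per3 from 10.2 and 8.20 to 92.4 and 95.8 CPM. Cry1, a repressor that peaks at another time of day, fell from 50.9 and 79.5 to 17.2 and 16.6 CPM (-2.08 ± 0.273). Npas2 rose in Myofibroblasts from 3.71 and 5.01 to 56.4 and 73.7 CPM, 2.69 above genes of like intron length. Arntl was higher in 9 of 10 classes with a median of 1.15, and in Myofibroblasts its change was 0.12 (adjusted p = 0.7). Per1, a light- and hormone-induced clock gene, stood at 17.4, 14.9, 90.5 and 66.6 CPM in gCap (2.16 ± 0.142, adjusted p = 8.9e-19). The time of day of tissue collection is not given in the sources used here, so age and time of day cannot be told apart in these genes.

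The E-box CACGTG, bound by the clock factors CLOCK and ARNTL, lay in 6 of 20 promoters of the clock list (30%) and in 6.02% of all promoters. The promoter of Per1 (chr11:69098699-69098948, plus strand), which was higher in 8 of 10 classes, is shown with its E-box in capitals.
Per1: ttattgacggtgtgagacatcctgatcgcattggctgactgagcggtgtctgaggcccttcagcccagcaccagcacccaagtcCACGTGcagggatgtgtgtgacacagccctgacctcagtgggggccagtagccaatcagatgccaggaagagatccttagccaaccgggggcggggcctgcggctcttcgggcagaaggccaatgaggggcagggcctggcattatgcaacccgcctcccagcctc

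Of the glucocorticoid list 82 of 175 pairs (46.9%) were higher and 56 (32.0%) lower, with a median of 0.33, against 28.6% and 25.7% of all pairs. On the intron-poor scale 103 (58.9%) were higher and 24 (13.7%) lower, with a median of 0.93, against 49.1% and 9.0% of all pairs. Among members whose introns are no longer than their exons 15 of 43 pairs (34.9%) were higher and 19 (44.2%) lower, against 6.22% and 48.6% of all such pairs. In gCap 9 of 19 members were higher and 9 lower, against 35.1% and 32.5% of all genes tested there. Zbtb16, a zinc finger gene strongly induced by glucocorticoids, went from 23.8 and 25.6 to 938 and 669 CPM in gCap (4.89 ± 0.146, adjusted p = 2.03e-32), which stood 3.74 above genes of like intron length, and rose in 10 of 10 classes. Klf9 went from 54.7 and 40.1 to 488 and 446 CPM in gCap (3.19 ± 0.128) and was higher in 8 of 10 classes. Tsc22d3, the glucocorticoid-induced leucine zipper, stood at 87.0, 84.7, 206 and 212 CPM. Hif3a fell in gCap from 12.5 and 11.5 to 0.843 and 0.684 CPM, and Sgk1 stood at 535, 435, 377 and 397 CPM (-0.44 ± 0.115, and 0.20 on the intron-poor scale, adjusted p = 0.151), so members of the list did not move together.

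In Alveolar Macrophages 17 of 25 members of the innate and scavenger list were lower and 4 higher, with a median log2 change of -2.20, against 25% and 28.9% of all genes tested there. With the intron-poor scaling 14 were lower and 5 higher, against 8.73% and 48.5%. Over all classes 76 of 168 pairs of that list (45.2%) were lower and 43 (25.6%) higher, against 25.7% and 28.6% of all pairs, and 57 (33.9%) lower and 59 (35.1%) higher on the intron-poor scale, against 9.0% and 49.1%. Of the class's markers, Siglecf stood at 13.1, 4.36, 108 and 97.4 CPM and Ear2 at 692, 553, 1050 and 979 CPM, while Marco, a scavenger receptor, stood at 155, 341, 270.0 and 265 CPM, with the ages overlapping. Chil3, a secreted chitinase-like protein, went from 269 and 155 to 10600 and 8040 CPM (5.14 ± 0.488, adjusted p = 5.75e-09), and the change exceeded that of the other classes by 3.07 (adjusted p = 1.63e-09). Pparg, the lipid-handling regulator these cells need, went from 116 and 102 to 659 and 627 CPM, though its 126496 bases of intron leave it 0.84 above genes of like length. Spp1, the cytokine osteopontin, fell from 1400 and 896 to 155 and 148 CPM (-3.24 ± 0.267), and the chemokine genes Cxcl2 and Ccl3 from 778 and 381 to 22.7 and 18.7 CPM and from 332 and 185 to 13.3 and 10.9 CPM. The fatty acid carriers Fabp4 and Fabp5 went from 1100 and 2050 to 89.0 and 66.0 CPM (-4.64 ± 0.36, adjusted p = 1.92e-10) and from 3570 and 5680 to 637 and 505 CPM. Cxcl2 and Fabp4 count here as genes without introns, since the annotated exons of their transcripts together cover the whole gene. Both were also called when such genes were scaled and adjusted by themselves. These changes stand beside the larger share of cells with alveolar macrophage markers at day 21.

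Over all classes 66 of 115 pairs of the neutrophil granule list (57.4%) were lower and 18 (15.7%) higher, against 25.7% and 28.6% of all pairs. On the intron-poor scale 52 (45.2%) were lower and 26 (22.6%) higher, against 9.0% and 49.1%. In gCap 13 of 13 members were lower and in aCap 13 of 14, against 32.5% and 24.9% of all genes tested there. Their levels were at most a fraction of 0.0136 in gCap and 0.0248 in aCap of those in the class where each gene was highest. The part of free RNA from neutrophils in these falls was not tested. In Neutrophils 8 of 17 granule genes were higher and 6 lower, beside 33.8% and 29.8% of all genes tested in the class, and on the intron-poor scale 13 were higher and 2 lower, beside 54.8% and 9.03%. Camp and Ltf, granule proteins of cells still in maturation, went from 51.4 and 30.6 to 1020 and 891 CPM and from 10.7 and 5.94 to 386 and 515 CPM. At day 1, however, the cells rich in such genes had a class of their own, Neutrophils Ngp+. With both names summed, Camp stood at 7060, 6370, 1020 and 891 CPM, Ltf at 2480, 2260, 386 and 515 CPM and Ngp at 9460, 8690, 1450 and 1610 CPM, so the direction turned and both day 21 libraries lay below both of day 1. These sums were added after the values of the class were seen and were not tested. Retnlg and Csf3r kept their directions in the sums. Csf3r, the receptor for the growth factor of granulocytes, rose in the class Neutrophils from 1260 and 1210 to 3370 and 3600 CPM (1.37 ± 0.0932, adjusted p = 1.06e-17). Retnlg, a resistin-like protein, fell from 14300 and 16900 to 5530 and 5250 CPM (-1.65 ± 0.0964), and Mmp8, a collagenase, from 1140 and 1610 to 491 and 538 CPM.

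The class B Cells held genes of early B cells at day 1. Igll1, part of the surrogate light chain, stood at 86.1 and 70.4 CPM in B Cells at day 1 and had no UMI at day 21, and Vpreb1, its partner, stood at 143, 145, 0.73 and 0.507 CPM (-7.89 ± 0.377, adjusted p = 1.83e-06). Ighd, the heavy chain of mature B cells, went from 43.0 and 29.0 to 421 and 486 CPM (3.48 ± 0.243) and Fcer2a, a receptor of mature B cells, from 4.1 and 2.18 to 110.0 and 164 CPM (5.21 ± 0.351). The part of the cells with fewer than 2 B cell markers, given above for day 1, was not tested. Of 21 lymphocyte maturation genes tested in NK Cells 12 were higher and 5 lower, against 24.9% and 20.2% of all genes tested there. On the intron-poor scale 13 were higher and 1 lower, against 43.5% and 6.51%. In NK Cells Prf1, the pore-forming killer protein, went from 42.4 and 51.9 to 330.0 and 530.0 CPM (2.92 ± 0.181) and Klrg1, a receptor of mature NK cells, from 4.47 and 2.32 to 93.9 and 96.8 CPM. Klra8, a Ly49 receptor, had no UMI at day 1 and stood at 150 and 206 CPM at day 21. Ccr7, a homing receptor, fell from 38.5 and 44.9 to 2.45 and 4.98 CPM. The effector genes Gzma, Gzmb and Ifng were called lower (-0.53, -0.58 and -0.52, adjusted p = 0.0026, 0.0191 and 0.0325). On the intron-poor scale their changes were 0.05, -0.01 and 0.05. Genes of granulocyte precursors moved with these changes. In NK Cells Mpo, myeloperoxidase, stood at 31.8 and 61.2 CPM at day 1, the protease genes Prtn3 and Ctsg at 40.2 and 52.7 CPM and at 14.5 and 16.3 CPM, and none of these had a UMI at day 21, while Ngp stood at 97.7, 6.97, 0 and 0.293 CPM. The part of such cells in the NK values was not tested.

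Genes of energy use and protein synthesis stood lower on the first scale and less so on the second. Over all pairs 25.7% were lower and 28.6% higher on the first scale and 9.0% and 49.1% on the second. Of 250 oxidative phosphorylation pairs 222 (88.8%) were lower and 2 higher, with a median of -0.81, and on the intron-poor scale 69 (27.6%) were lower and 15 (6.0%) higher, with a median of -0.18. Of 186 pairs of translation factors 146 (78.5%) were lower and 1 higher, and 79 (42.5%) and 15 (8.06%) on the intron-poor scale. The cholesterol and lipid list had 124 lower (44.6%) and 42 higher (15.1%) of 278, and 68 (24.5%) and 73 (26.3%) on the intron-poor scale. Sqle, an enzyme of cholesterol synthesis, went from 23.3 and 29.4 to 6.56 and 4.45 CPM in gCap (-2.34 ± 0.194) and was lower in 8 of 9 classes on the intron-poor scale. Cd36, a fatty acid receptor of capillaries, went from 834 and 518 to 2580 and 2500 CPM in gCap (1.83 ± 0.121), 0.68 above genes of like intron length.

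Immediate early and heat shock genes, which respond to tissue dissociation, were lower in 122 of 232 pairs (52.6%) and higher in 34 (14.7%), with a median of -0.53, against 25.7% and 28.6% of all pairs. With the intron-poor scaling 63 (27.2%) were lower and 88 (37.9%) higher, with a median of 0.10, against 9.0%, 49.1% and a median of 0.64 over all pairs. Egr1 and Fos, transcription factors of that response, were lower in 9 and 8 of 10 classes, and on the intron-poor scale lower in 7 and 8 and higher in 1 and 2. The heat shock genes Hspa1a and Hspa1b rose in aCap, from 1.40 and 0.711 to 78.9 and 24.4 CPM and from 0.351 and 1.07 to 77.4 and 19.3 CPM, with the female library above the male one at day 21. These 2 genes are near copies of each other.

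**Figure D4:**
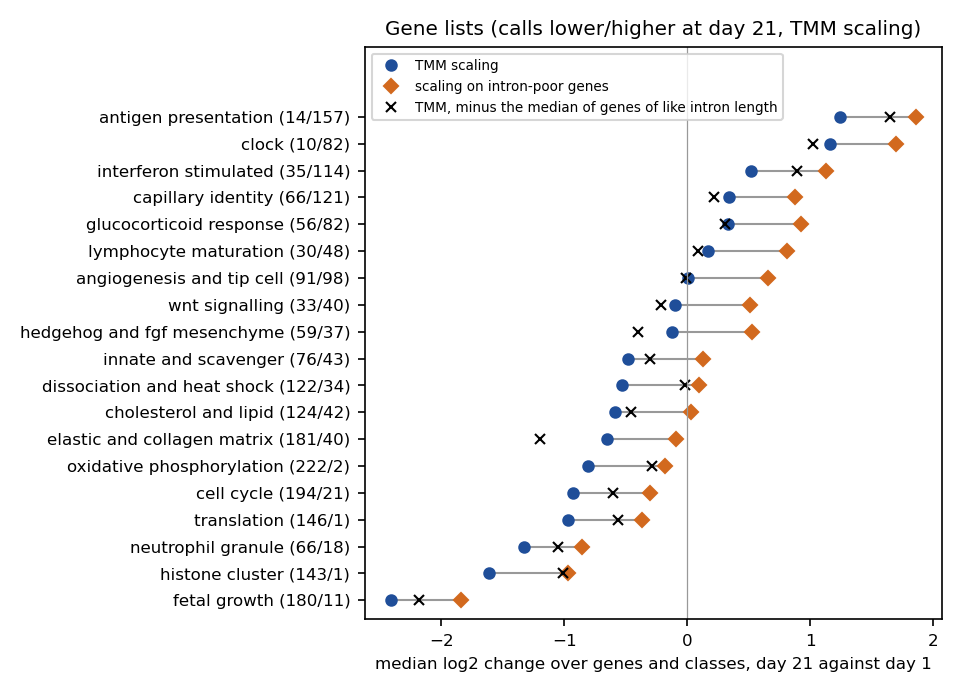
Median log2 change from day 1 to day 21 over all tested gene and class pairs of 19 gene lists (horizontal axis), on the TMM scale (circles), on the scale of intron-poor genes (diamonds) and on the TMM scale after taking off the median of genes of like intron length in the class (crosses), with the counts of lower and higher calls on the TMM scale in the labels. Fetal growth and histone genes lie lowest at -2.41 and -1.61 and antigen presentation highest at 1.24, while the matrix list reads -0.65 and -0.09 on the first and second scale.

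A second test asked which genes changed in 1 class more than in the others. It took the difference between the class and a fixed mixture of the other classes of the same library, in which anything that multiplies a gene equally in all classes of a library cancels. The intron gradient was not equal in all classes, so it need not cancel in full. For genes with over 300000 intron bases the median change was 2.05 in aCap and 2.34 to 2.57 in the other classes. Of the genes named below, Camk1d, Inpp4b and Ncam1 have introns of 413632, 772293 and 288126 bases. Of 92924 pairs, 9539 (10.3%) were called lower and 8385 (9.02%) higher relative to the others. These were 17924 class-specific age calls, against 11506 with DESeq2 and 11687 with edgeR without the day 1 male library. The rule named 3 rises and 2 falls for each of the 6 tested classes with the most cells in their smallest library.

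In gCap the rises were Ak8, an adenylate kinase, H2-Q6, a class Ib gene, and Xdh, xanthine dehydrogenase, and the falls were Rgs2, an inhibitor of G protein signals, and Cdkn2b, a cell cycle inhibitor. Xdh went from 10.1 and 8.88 to 265 and 273 CPM (4.69 in gCap, 3.39 above the other classes). With other endothelial classes as the reference, the gCap calls of Ak8, H2-Q6 and Xdh were lost (adjusted p = 0.26, 0.535 and 0.195). Rgs2 fell from 237 and 321 to 26.1 and 24.2 CPM (-3.57), a difference of -3.36 from the other classes, but against endothelial classes alone the difference was 0.23 (adjusted p = 0.34). Cdkn2b lost its age call in 4 of 14 alternatives.

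In aCap Fibin was joined by Ncam1, an adhesion molecule, at 1.75, 2.84, 70.6 and 76.1 CPM, and by Hspa1a. The aCap falls were Krt19 and Lsr, an epithelial keratin and a junction protein. Krt19 went from 54.7 and 44.1 to 0.942 and 1.42 CPM in aCap, beside the loss of cells with epithelial markers from that class. Across the 8 tested classes other than Alveolar Macrophages, the change of Krt19 ranged from -7.9 to -1.73. In Alveolar Macrophages the same gene rose from 27.9 and 24.9 to 318 and 296 CPM, a change of 3.18. The difference from the falls of the other classes was 7.29 on the log2 scale. Afap1, an actin-binding protein, and Prom1, a membrane glycoprotein, also rose there, while Wfdc17, a secreted inhibitor-like protein, fell from 641 and 1160 to 42.6 and 23.5 CPM and Cxcl14, a chemokine, fell as well.

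Arterial cells were named for Grtp1, Xdh and Camk1d among the rises and H19 and Tmem178 among the falls. H19 went from 248 and 295 to 0.63 and 0 CPM there. Xdh and Camk1d lost their Arterial calls against the other endothelial classes (adjusted p = 0.0614 and 0.476), and Grtp1, which overlaps Lamp1 on the other strand, lost its call in 4 of 13 alternatives. In B Cells Inpp4b, Ralgps2 and Pgap1 rose most against the others, and Klrb1b, an NK cell receptor, went from 50.6 and 54.4 CPM to no UMI, and Clec9a, a dendritic cell receptor, also fell, beside the larger share of cells with fewer than 2 B cell markers at day 1. Klrb1b lost its age call in 1 of 13 alternatives. In Neutrophils the rule gave Ngp, Wfdc17 and Basp1 as rises and Il18bp and Camk1 as falls. Ngp went from 115 and 124 to 1450 and 1610 CPM (3.55), and with likely doublets left out the change was 0.53 (adjusted p = 0.479). Il18bp lost its age call in 3 of 14 alternatives.

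**Figure D5:**
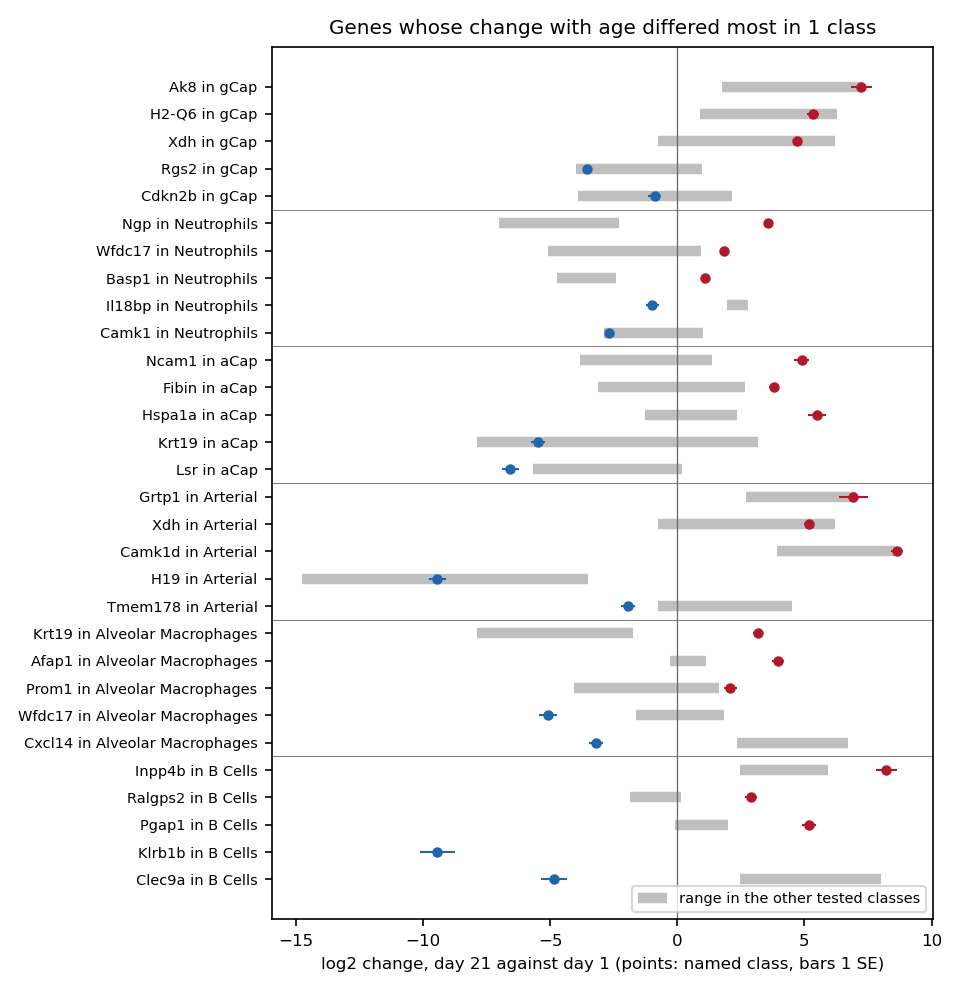
Log2 change from day 1 to day 21 (horizontal axis) of the 30 genes named for 6 classes, with red points for rises and blue points for falls in the named class, bars of 1 SE, and grey bars for the range in the other tested classes. Fibin in aCap lies right of the grey range, whereas the gCap points lie within theirs.

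By the rule for genes with short introns called higher in the most classes, H2-Q7, H2-T22, H2-K1, H2-Aa, Helz2, Zfp408, Fzd4 and the gene model AC149090.1 were named. H2-T22, a class Ib gene, was higher in 9 of 10 classes with a median log2 change of 0.75. Helz2, an interferon-induced helicase, was higher in 8 of 10 with a median of 1.20. Fzd4, the receptor for Norrin and Wnt signals in vessels, was higher in 7 of 9 with a median of 1.02. Zfp408, a zinc finger gene, was higher in 7 of 10 with a median of 1.17. Of these 8 genes 4 belong to the MHC.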

How the data were processed

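UMI counts per gene and barcode were deposited as whole numbers by the authors, who made them with Cell Ranger 6.0.0 for day 1 and 7.0.1 for day 21 per the file headers. The submitters' processing notes name mm10, Cell Ranger 6.0.0 and Seurat 4.1.1. Intron counting, clustering and doublet removal are not given in the sources used here. The annotation the authors deposited gives each barcode a class name or none, and these names, of no numeric unit, were used as deposited.

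Counts were summed per class and library over the 10 classes with at least 50 cells in each of 4 libraries, filtered with filterByExpr and tested with edgeR 4.0.16 (R 4.3.3, limma 3.58.1). The class-specific test used a mean CPM of at least 5 in the class and in the reference. Intron and exon lengths came from GENCODE M21 and promoters from RefSeq. A base in an exon of any annotated transcript counted as exon, so a spliced gene can count as without introns. Intervals at 95% and floors of 3 UMIs cover counting error only. The labels give 1 pool per sex and age, so no p-value measures the spread between pools of the same sex and age. The p-values of the age test rest on what sex and age leave over between the 4 libraries, and on the spread shared across genes.

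Named were the 12 genes lower and the 8 short-intron genes higher in the most classes, 3 rises and 2 falls specific to each of 6 classes, and up to 4 members of each of 19 lists. Not every list member set by this rule is given above. Members, lists and rules were chosen with earlier results of these data known. The tests were checked on simulated data. DESeq2 1.42.0, other scalings and filters, likely doublets (Scrublet in scanpy 1.11.5) left out, cells with 2 or more markers of another lineage left out and each library left out were tried as alternatives. The result for 1 gene is not reported here.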

Additional observations from a re-analysis of the deposited data

Results flagged for a closer look

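The share of AT2 cells moved in opposite directions in the sexes. In females it went from 0.468% to 1.56%, a difference of 1.10 percentage points, and in males from 5.58% to 0.0989%, a difference of -5.48. The difference between the sexes was not tested, since each sex and age was 1 library. With AT2 Lyz1+ cells included, the share was lower at day 21 in both sexes, by -2.43 points in females and -14.5 in males.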

How the results depend on the processing

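DESeq2 gave 30441 age calls against 59221 with edgeR, and 11506 class-specific age calls against 17924. Among genes without introns, which are far fewer, 875 of 3558 pairs were called for age and 476 of 5517 for class-specific change. With scaling on intron-poor genes the age calls were 9809 lower and 53506 higher against 28037 and 31184. Leaving out 1 library gave 47377 to 51665 age calls and 11687 to 15291 class-specific calls, the lowest without the day 1 male library. The endothelial share differed by 9.63 percentage points, by 5.66 over every deposited barcode, by 9.09 with likely doublets left out and by 8.33 to 10.9 with 1 library left out. The immune share differed by 23.4 points, by 15.0 over every barcode and by 20.5 without cells holding markers of another lineage. Rgs2 in gCap turned from -3.36 to 0.23 (adjusted p = 0.34) against endothelial classes alone. Of 60 changes of the genes named for single classes, 49 kept direction and call in every alternative that gave a value, 10 lost the call in at least 1 and 1, Rgs2, turned. The cause of these shifts was not tested.

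The age test pairs the libraries by sex through the sex covariate, and without that covariate there were 58092 age calls, within 1.5 times the count with it. The labels carry no replicate numbers that could pair libraries otherwise. Depth limits the Myofibroblasts of day 21, where 3 UMIs stand for 4.70 and 2.76 CPM.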
